A study of Mus musculus with 12 samples.

Results

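The IL-6 and IL-10 cytokines and receptors described here are 8 genes chosen by name, out of 23997 genes listed for each library. The 4 ligand genes are Il6, Lif, Osm and Il10, and the 4 receptor chain genes are Il6ra, Il6st, Il10ra and Il10rb. Their mRNA was measured by RNA-seq in bone marrow-derived macrophages (BMDMs) in 12 libraries, 3 in each of 4 groups. The groups were untreated WT, untreated Pim1-/-, WT treated with LPS and Pim1-/- treated with LPS, and they ask how loss of the kinase Pim1 changes gene expression at rest and during Toll-like receptor 4 signaling. LPS, the bacterial ligand of that receptor, was given at 100 ng/ml for 4 h. All cells were of the C57BL/6 strain. The protocol used bone marrow of male mice aged 8 to 10 weeks, which was cultured for 1 d and then grown for 7 d with human M-CSF at 10 ng/ml. Pim1-/- mice were made by CRISPR/Cas9 and lack exons I–V of Pim1 in all cells, and not in macrophages alone. The labels do not say whether the replicates came from separate mice or cultures, so p-values measure only the spread between these libraries, which may be technical.

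IL-6, LIF and OSM belong to one cytokine family and signal through gp130, the receptor chain encoded by Il6st. IL-6 first binds IL-6Rα, encoded by Il6ra, whereas LIF and OSM use gp130 together with LIFR or OSMR. IL-10 binds IL-10R1, encoded by Il10ra, which pairs with the widely expressed chain IL-10R2, encoded by Il10rb. Both receptor systems activate JAK kinases and STAT3. In macrophages IL-10 is known for restraining inflammatory gene expression, and IL-6 is known as an early product of Toll-like receptor signaling.

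The values are FPKM, in which fragments are divided by transcript length and by the number mapped, so levels of different genes can be compared per length. A gene was tested if it had at least 1 FPKM in at least 3 libraries, which 10581 genes and 7 of the 8 members did. Only Lif did not pass. Differences were fitted by limma on log2(FPKM + 1), where changes of low genes come out too small, and the adjusted p given below is limma's Benjamini-Hochberg FDR over all 10581 genes. A gene passed the test at an FDR under 0.1, and was called if it also changed more than 2-fold on that scale with p under 0.05.

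Replicates were alike, with a median coefficient of variation of 3.03% to 5.12% per group among genes expressed well. FPKM does not give depth, but low values moved in steps, from which the value of 1 fragment was estimated. The length used was the effective length, which is transcript length minus an assumed fragment length of 200 nt. On an effective length of 1000 nt, 1 fragment was worth 0.0218 to 0.0265 FPKM untreated and 0.0316 to 0.0483 FPKM after LPS. The targeted gene was lower in every Pim1-/- library, at 8.73 ± 0.752 against 22.9 ± 1.80 FPKM untreated and 219 ± 15.6 against 645 ± 17.8 FPKM after LPS (mean ± SD, n = 3). That left 38.1% and 33.9% of the WT value, and in Pim1-/- cells it rose 25.1-fold with LPS. A value for the whole gene does not show which exons gave it, so the deletion itself was not checked. Actb, the reference of the study's RT-qPCR, differed between the groups too, and after LPS its mean in Pim1-/- cells was 36.9% of WT. All 10 macrophage markers were above 1 FPKM in at least one library, and their summed level was 27910 to 29960 FPKM in untreated WT, 14410 to 15330 in untreated Pim1-/-, 30820 to 31320 in LPS-treated WT and 15930 to 17790 in LPS-treated Pim1-/- libraries. The sum is mostly Lyz2, and 10 of the 10 markers passed the test as lower in Pim1-/- cells after LPS and 9 of 10 without treatment. The part of this shift in the results below was not tested, and in bulk RNA fewer cells of a type and less RNA per cell cannot be told apart. Markers of other cell types summed to at most 2.82 FPKM for dendritic cells, 8.22 for neutrophils (7 of 8 markers listed), 1.996 for B cells, 0.586 for T and NK cells, 0.255 for mast cells and basophils, 4.98 for stromal cells and 0.130 for erythroid cells. Pax5, Cd3e, Cd3g, Ncr1, Cd8a and Fcer1a were listed at 0 in every library.

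LPS raised some members and lowered others, and receptor chains were among both. In WT cells it raised Il6, Il10 and Il10ra and lowered Il6ra and Il6st by more than 2-fold, so 3 of 7 tested members were called higher and 2 lower, where 20.1% and 14.7% of all tested genes were. In Pim1-/- cells it raised Il6, Il10, Osm and Il10ra and lowered Il6ra, so 4 were called higher and 1 lower, where 14.6% and 10.4% of all tested genes were. Il6 and Il10 passed the filter on low values only through the LPS-treated groups, so they had to differ with LPS and their place in these counts is no finding.

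Most members were lower in Pim1-/- cells, and those past the 2-fold threshold were not the same in both conditions. Without LPS, Il10ra, Il6ra and Il6st were called lower in Pim1-/- cells, 3 of 7, where 3.37% of all tested genes were, and 0 were called higher, where 4.4% were. After LPS, Il10 and Il10ra were called lower, 2 of 7, where 5.15% of all tested genes were, and 0 were called higher, where 3.51% were. By the FDR alone, 6 of 7 were lower without treatment, where 44.2% of all tested genes were, and after LPS 5 were lower and 1 higher, where 43.4% and 37.6% were. The libraries of the genotypes did not overlap for 6 of 7 in either condition, but neither did those of 78.4% of all tested genes without treatment and 77.5% after LPS. Which members were called rests partly on the scale, since Il10, called after LPS, was at 38.8% of WT untreated and 44.9% after LPS, and Il6ra, called untreated, was at 36.3% and 52.0%. The median difference over the 7 members was -0.44 without treatment and -0.41 after LPS, where that of all tested genes was -0.05 and -0.03. The comparisons share groups of libraries, so they are given side by side and are not independent of each other.

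**Figure D1:**
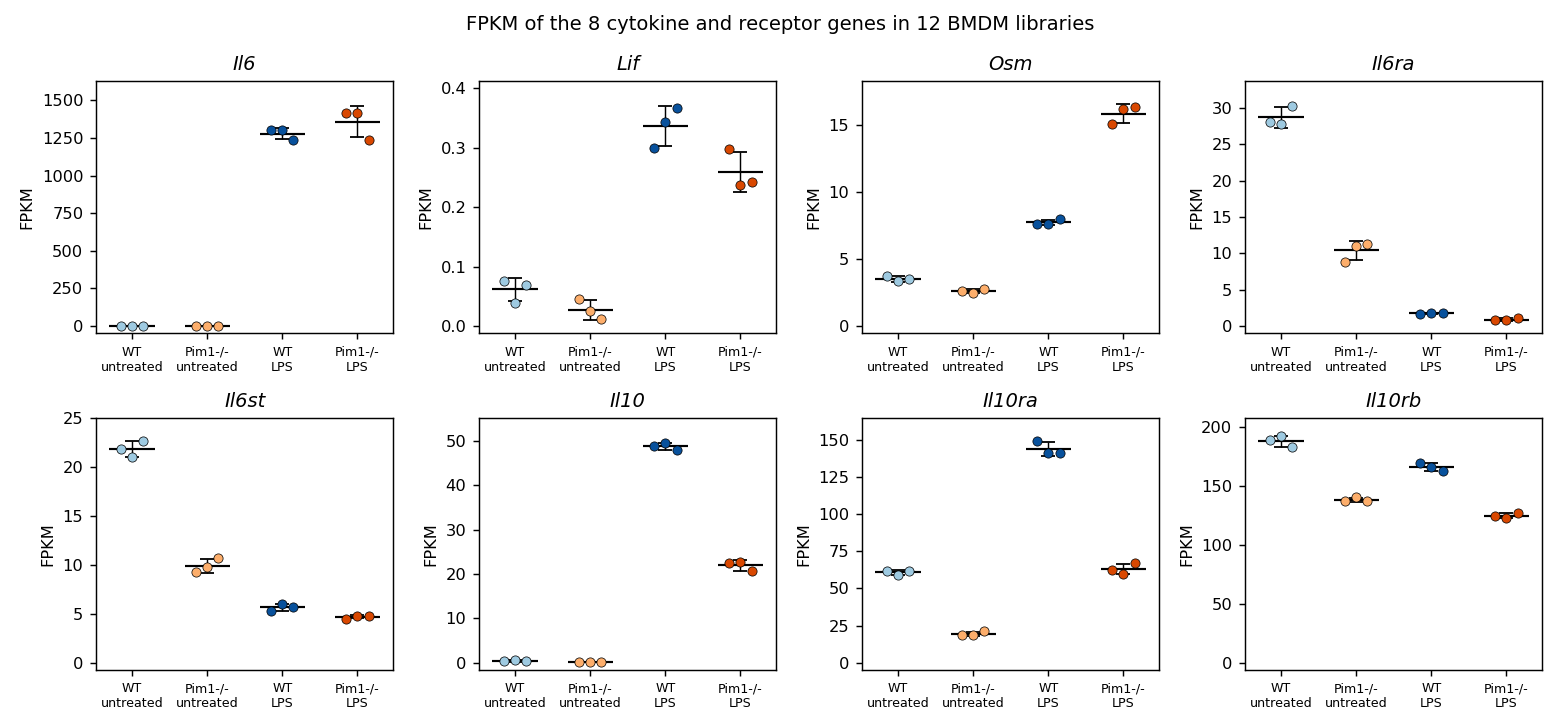
FPKM of each member (y axis, linear, its own scale per gene) in the 12 libraries, by genotype and treatment (x axis). Points are libraries, horizontal lines group means and bars the SD (n = 3). The LPS-treated groups overlap for Il6, and the Pim1-/- libraries are higher for Osm and lower for Il10 and Il10ra.

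Il6 encodes the inflammatory cytokine IL-6 and lies at chr5:30013114-30019981 on the plus strand (GRCm38, GENCODE M21). In untreated cells it was listed at 0 in 4 of 6 libraries, and the other two, WT replicate 3 and Pim1-/- replicate 1, held 0.0254 and 0.0244 FPKM, about 1 fragment each. After LPS it stood at 1300.1, 1301 and 1233 FPKM in WT libraries and at 1418, 1418 and 1237 FPKM in those of Pim1-/- cells. Pim1-/- replicate 3 lay within the WT range and the other two Pim1-/- libraries lay above it, so the genotypes overlapped. The means were 1278 ± 38.95 and 1358 ± 104.6 FPKM (SD, n = 3), a difference of 0.08 on log2(FPKM + 1) with a 95% confidence interval of -0.02 to 0.19 (SE 0.05, adjusted p = 0.142). That Il6 did not pass the test depends on the scaling and on 1 library. It passed as higher in Pim1-/- cells under median-ratio scaling (0.11, adjusted p = 0.0653), quantile normalization (0.19, adjusted p = 0.00124), equal sums of FPKM (0.29, adjusted p = 3.6e-05) and Actb scaling (1.53, adjusted p = 6.22e-10), with the replicate block (0.08, adjusted p = 0.0943) and without LPS-treated Pim1-/- replicate 3 (0.15, adjusted p = 0.00436). The rise with LPS was 10.31 in WT and 10.39 in Pim1-/- cells on that scale, and its size depends on the pseudocount because the untreated level was near 0. The rises differed by 0.08 (95% confidence interval -0.07 to 0.24, adjusted p = 0.319), which did not pass the test, but did without that library (0.15, adjusted p = 0.029). Relative to Actb in the same library, Il6 was 0.159 in WT and 0.461 in Pim1-/- cells after LPS, a ratio 2.91 times as high in Pim1-/- cells, with no overlap between libraries. Actb itself was then at 36.9% of WT in Pim1-/- cells, so the ratio describes Actb as well as Il6. Under Actb scaling the median difference of all tested genes after LPS was 1.052, and 5736 of 10581 were called higher.

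The 250 bases before the RefSeq start of Il6 are shown because no member rose more with LPS, beside those of Il6ra, the member that fell most in WT cells. Both are from RefSeq on GRCm38.p6, 5′ to 3′ on the strand of the gene, Il6 at chr5:30012864-30013113 (plus) and Il6ra at chr3:89913197-89913446 (minus). Capitals mark matches, on either strand, to 3 motifs that do not overlap each other here. These are the NF-κB consensus at -44 to -35, GACGTCA for the cAMP response element at -137 to -131 and TGANTCA for AP-1 at -249 to -243, counted back from the start. Of 32536 promoters in the RefSeq table, 7.28% held the first, 2.80% the second and 6.73% the third in these 250 bases.
Il6: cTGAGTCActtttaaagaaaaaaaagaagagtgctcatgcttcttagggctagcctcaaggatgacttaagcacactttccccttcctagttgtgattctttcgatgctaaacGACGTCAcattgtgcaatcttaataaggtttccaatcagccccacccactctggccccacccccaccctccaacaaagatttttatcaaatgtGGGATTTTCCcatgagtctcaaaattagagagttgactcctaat
Il6ra: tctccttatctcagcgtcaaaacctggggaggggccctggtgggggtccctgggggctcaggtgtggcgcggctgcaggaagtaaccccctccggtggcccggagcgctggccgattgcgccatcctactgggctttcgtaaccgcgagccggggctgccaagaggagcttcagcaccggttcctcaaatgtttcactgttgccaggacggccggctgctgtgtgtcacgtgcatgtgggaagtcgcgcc
The Il6 stretch held 3 CpG dinucleotides, a number that 71.2% of promoters reach, and the Il6ra stretch held 18, which 21.8% reach. Il6ra had no capital letters, which says only that these letters are not in this window. The same window of Lif, a gene under 1 FPKM in every library, held matches to NF-κB (-178 to -169) and AP-1 (-228 to -222). Whether matches go with the response to LPS was not tested. A match is a description and not evidence of binding.

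Osm encodes oncostatin M, a product of activated macrophages, and lies at chr11:4236420-4241026 on the plus strand, 16530 bp before Lif. It stood at 3.74, 3.33 and 3.49 FPKM for untreated WT and at 2.62, 2.44 and 2.74 FPKM in untreated Pim1-/- libraries. With LPS it stood at 7.59, 7.64 and 7.95 FPKM in WT libraries and at 15.02, 16.15 and 16.31 FPKM in those of Pim1-/- cells. Every Pim1-/- library was below WT without treatment and above WT after LPS. The difference between genotypes was -0.33 without treatment (SE 0.05, adjusted p = 5.27e-05) and 0.95 after LPS (SE 0.05, adjusted p = 3.1e-10). The second is just short of the 2-fold threshold on log2(FPKM + 1), although the means, 15.8 ± 0.699 and 7.73 ± 0.196 FPKM (SD, n = 3), had a ratio of 2.05. LPS raised Osm by 0.95 in WT (adjusted p = 7.38e-11) and by 2.22 in Pim1-/- cells (adjusted p = 1.68e-15). These responses differed by 1.27 (SE 0.08, 95% confidence interval 1.11 to 1.44, adjusted p = 1.9e-09), and Osm was the single member called for a different response to LPS, 1 of 7, where 2.24% of all tested genes were called in that direction. By the FDR alone 4 members responded more positively in Pim1-/- cells and 1 more negatively, where 32.7% and 35.8% of all tested genes did. Osm was also the single member that passed the test as higher in Pim1-/- cells after LPS.

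Lif encodes leukemia inhibitory factor and lies at chr11:4257557-4272514 on the plus strand. It was under 1 FPKM in all 12 libraries and was not tested with the other members. It stood at 0.0761, 0.0388 and 0.0699 FPKM in untreated WT, and at 0.0456, 0.0261 and 0.0119 FPKM in untreated Pim1-/- libraries. In LPS-treated libraries it stood at 0.300, 0.344 and 0.367 FPKM in WT libraries and at 0.298, 0.238 and 0.243 FPKM in those of Pim1-/- cells. All LPS-treated libraries were above all untreated ones, and the 3 LPS-treated Pim1-/- libraries were below the 3 WT ones, the nearest of them by less than the spread within either group. These levels rest on an estimated 2 to 12 fragments per untreated library and 22.9 to 36.1 per LPS-treated library. In a fit of all genes with no filter, Lif was 0.33 higher with LPS in WT (adjusted p = 2.78e-07) and 0.29 higher in Pim1-/- cells (adjusted p = 1.08e-06). Its difference between genotypes after LPS was -0.09 in that fit (adjusted p = 0.012).

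Il6ra encodes the IL-6 binding chain and lies at chr3:89864059-89913196 on the minus strand, where Gm42809 overlaps it. It stood at 28.0, 27.7 and 30.3 FPKM in untreated WT and at 8.83, 11.05 and 11.31 FPKM in untreated Pim1-/- libraries. After LPS it stood at 1.64, 1.80 and 1.76 FPKM in WT libraries and at 0.810, 0.829 and 1.07 FPKM in those of Pim1-/- cells. The 4 groups did not overlap, and untreated WT was highest. The Pim1-/- mean was 36.3% of WT without treatment (difference -1.39, SE 0.08, adjusted p = 3.99e-10) and 52.0% of WT after LPS (difference -0.53, SE 0.08, adjusted p = 2.06e-05). LPS lowered Il6ra to 6.05% of the untreated level in WT (difference -3.44, adjusted p = 6.45e-16) and to 8.69% in Pim1-/- cells (difference -2.58, adjusted p = 3.99e-14). The responses differed by 0.86 on log2(FPKM + 1) (SE 0.11, adjusted p = 8.56e-06), the fall being smaller in Pim1-/- cells, which started lower. The size of this difference depends on the pseudocount of 1, which is near the levels after LPS. With a pseudocount of 0.1 the difference between genotypes after LPS was -0.88 (adjusted p = 2.26e-06).

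Il6st encodes gp130, the signaling chain of the IL-6 family, and lies at chr13:112464070-112510086 on the plus strand. It stood at 21.9, 21.1 and 22.7 FPKM in untreated WT and at 9.33, 9.75 and 10.7 FPKM in untreated Pim1-/- libraries. In LPS-treated cells Il6st stood at 5.28, 6.04 and 5.70 FPKM in WT libraries and at 4.50, 4.83 and 4.83 FPKM in those of Pim1-/- cells. As for Il6ra, no groups overlapped, and the gap between genotypes was narrower after LPS. The difference between genotypes was -1.07 without treatment (SE 0.06, adjusted p = 2.43e-10) and -0.22 after LPS (SE 0.06, adjusted p = 0.00307), the latter being -0.05 with equal sums of FPKM (adjusted p = 0.561). LPS lowered Il6st by 1.78 on log2(FPKM + 1) in WT (adjusted p = 6.48e-14). In Pim1-/- cells its change with LPS was -0.93 (adjusted p = 4.07e-10), just short of 2-fold on that scale and past it with median-ratio scaling (-1.01). The responses differed by 0.85 (SE 0.08, adjusted p = 4.2e-07).

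Il10 encodes the anti-inflammatory cytokine IL-10 and lies at chr1:131019845-131024974 on the plus strand. It stood at 0.428, 0.669 and 0.306 FPKM in untreated WT and at 0.176, 0.246 and 0.122 FPKM in untreated Pim1-/- libraries. After LPS it stood at 48.9, 49.6 and 48.0 FPKM in WT libraries and at 22.4, 22.8 and 20.6 FPKM in those of Pim1-/- cells. Every Pim1-/- library was below every WT library in both conditions. After LPS the means were 48.8 ± 0.802 and 21.9 ± 1.17 FPKM (SD, n = 3), so Pim1-/- cells held 44.9% of the WT level (difference -1.12, SE 0.08, 95% confidence interval -1.28 to -0.96, adjusted p = 2.36e-09). Without treatment the difference was -0.31 (adjusted p = 0.00183), at an estimated 5.96 to 29.9 fragments per library. LPS raised Il10 by 5.09 on log2(FPKM + 1) in WT and by 4.28 in Pim1-/- cells. The responses differed by -0.81 (SE 0.11, adjusted p = 9.34e-06), but by -0.17 with a pseudocount of 0.1 (adjusted p = 0.602). On the linear scale the mean rose 104-fold in WT and 121-fold in Pim1-/- cells, so the order of the responses on that scale was the other way.

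Il10ra encodes the IL-10 binding chain and lies at chr9:45253837-45269149 on the minus strand, where Gm20612 and Mir7086 overlap it. It stood at 61.8, 59.0 and 61.5 FPKM in untreated WT and at 18.5, 18.5 and 21.1 FPKM in untreated Pim1-/- libraries. Treated with LPS, the cells had it at 149, 141 and 141 FPKM in WT libraries and at 62.2, 60.0 and 66.9 FPKM in those of Pim1-/- cells. Pim1-/- libraries were below WT in both conditions, and LPS-treated Pim1-/- libraries reached about the level of untreated WT. The Pim1-/- mean was 31.8% of WT without treatment (difference -1.61, SE 0.05, adjusted p = 6.15e-13) and 43.9% of WT after LPS (difference -1.18, SE 0.05, adjusted p = 2.75e-11). LPS raised Il10ra by 1.23 in WT (adjusted p = 3e-12) and by 1.66 in Pim1-/- cells (adjusted p = 8.88e-14). The responses differed by 0.43 (SE 0.08, adjusted p = 0.000183).

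Il10rb encodes the chain that IL-10 shares with related cytokines, and lies at chr16:91406164-91425834 on the plus strand, 574 bp from Ifnar2. Gm21970 overlaps it on the same strand, so reads of the pair could be split and the values are uncertain. It stood at 189, 192 and 183 FPKM in untreated WT and at 138, 141 and 137 FPKM in untreated Pim1-/- libraries. In LPS-treated cells it stood at 169, 167 and 163 FPKM in WT libraries and at 124, 123 and 127 FPKM in those of Pim1-/- cells. The Pim1-/- libraries were lower in both conditions, by 0.44 without treatment (adjusted p = 2.7e-08) and 0.41 after LPS (adjusted p = 4.82e-08), with no overlap. LPS moved Il10rb by -0.18 in WT and -0.15 in Pim1-/- cells, and the responses differed by 0.03 (95% confidence interval -0.08 to 0.14, adjusted p = 0.623), a difference that passed the test under quantile normalization (0.40, adjusted p = 9.73e-06) and equal sums (0.18, adjusted p = 0.00686).

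**Figure D2:**
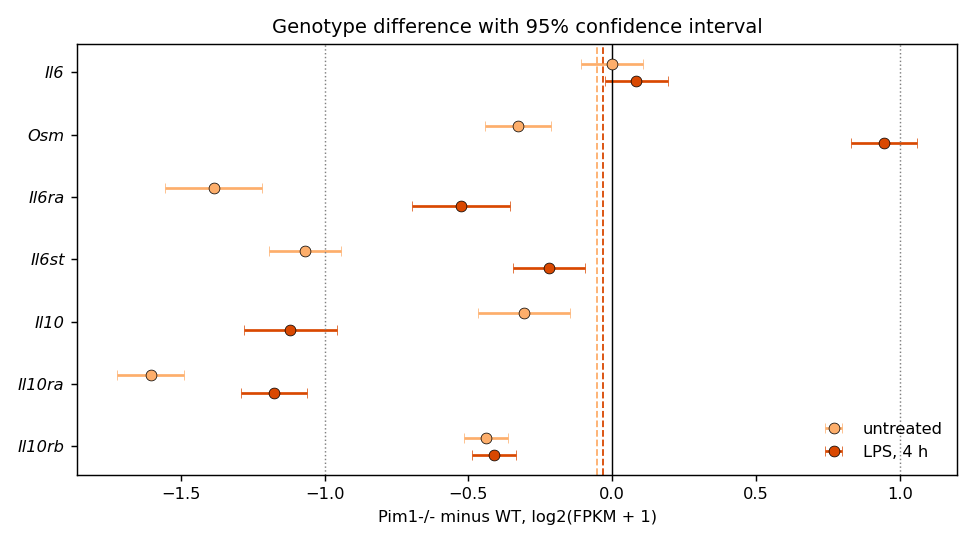
Difference between Pim1-/- and WT on log2(FPKM + 1) (x axis) for the 7 tested members (y axis), untreated and after LPS. Points are limma estimates, bars 95% confidence intervals, dotted lines 2-fold and dashed lines the medians of all tested genes (-0.05 untreated, -0.03 after LPS). For Osm the interval lies below 0 untreated and above 0 after LPS, and for Il6 both intervals include 0.

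**Figure D3:**
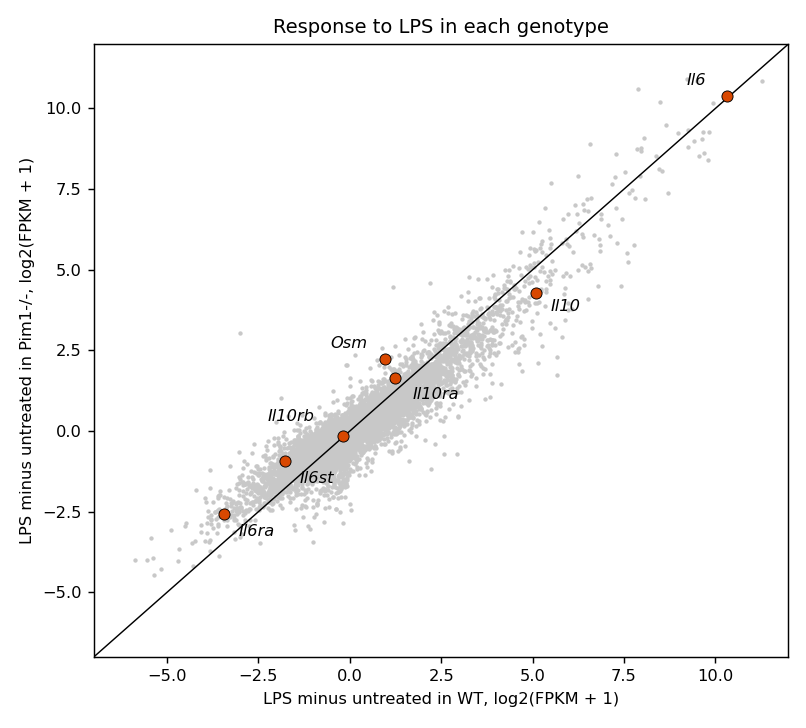
Change with LPS on log2(FPKM + 1) in WT (x axis) and in Pim1-/- cells (y axis). Grey points are the 10581 tested genes, labelled points the 7 tested members, and the line marks equal change. Il6 and Il10rb lie close to the line, Osm above it (0.95 and 2.22) and Il10 below it (5.09 and 4.28).

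Ratios of 2 members within a library do not depend on how libraries were scaled to each other. After LPS, Il10 per Il6 was 0.0376, 0.0381 and 0.0389 in WT and 0.0158, 0.0161 and 0.0167 in Pim1-/- libraries. Osm per Il6 was 0.00584, 0.00587 and 0.00645 in WT and 0.0106, 0.0114 and 0.0132 in Pim1-/- libraries. In Pim1-/- cells there was thus less Il10 and more Osm for each unit of Il6, and Osm per Il10 was 0.158 in WT and 0.724 in Pim1-/- cells, a 4.57-fold difference. The binding chain per partner chain was lower in Pim1-/- cells in both receptors. Il6ra per Il6st was 1.31 in WT and 1.04 in Pim1-/- cells untreated, and 0.306 and 0.191 after LPS. Il10ra per Il10rb was 0.323 and 0.140 untreated, and 0.863 and 0.504 after LPS. None of these ratios overlapped between the genotypes. Each had p = 0.1 in a two-sided exact permutation test, the smallest that 3 against 3 libraries allow. In untreated cells Osm per Il10 did overlap, with means of 8.365 in WT and 15.75 in Pim1-/- cells. How many ratios of other gene pairs overlap was not tested. Of single tested genes, 78.4% did not overlap between the genotypes without treatment and 77.5% after LPS.

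**Figure D4:**
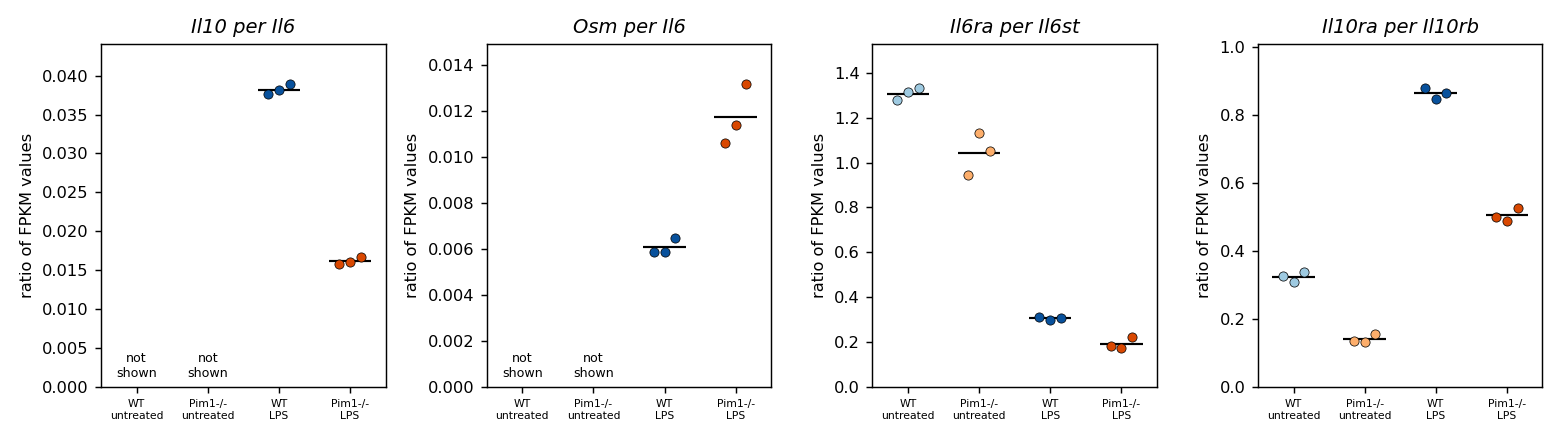
Ratio of the FPKM of 2 members within each library (y axis, linear from 0) by genotype and treatment (x axis). Points are libraries and lines group means (n = 3), and ratios to Il6 are not shown for untreated cells, where Il6 was at or near 0. Pim1-/- libraries lie below WT in every panel except Osm per Il6, where they lie above.

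The order of the levels changed with LPS and less with genotype. In untreated WT cells it was Il10rb, Il10ra, Il6ra, Il6st, Osm, Il10, Lif and Il6 from high to low, with no overlap between neighbours. Untreated Pim1-/- cells had the same order, but the libraries of Il6ra and Il6st overlapped, as did those of Lif and Il6. After LPS the order in both genotypes was Il6, Il10rb, Il10ra, Il10, Osm, Il6st, Il6ra and Lif, with no overlap between neighbours. Il6 thus went from last to first.

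The tested genes with the 4 group means most like those of a member were found by the root-mean-square distance on log2(FPKM + 1), after each gene was centred on its own mean. For Il6 the nearest was Il12b, which encodes a subunit of IL-12 and IL-23, at a distance of 0.163, with 0.0277 and 0.0635 FPKM untreated and 1013 and 1219 FPKM after LPS in WT and Pim1-/- cells. It was followed by Cd69 (0.470), Cxcl2 (0.483), Tnf (0.527) and Irg1 (0.538). For Il10 the nearest were Serpina3g (0.054), Slc2a6 (0.124), Slc28a2 (0.130), Sod2 (0.134) and Nlrc5 (0.140). Serpina3g, a serine protease inhibitor gene, stood at 49.4 (WT) and 20.9 FPKM (Pim1-/-) after LPS. For Osm they were Slpi (0.128), Rps6ka2 (0.175) and Htr2a (0.194), for Il10ra H2-Ab1 (0.169), Arap1 (0.183) and Bcl2l11 (0.222), and for Il6ra Slc43a2 (0.082), Zdhhc14 (0.110) and Pla2g15 (0.148). Vav2, Tecpr1 and Peg13 were nearest to Il6st, and Brf1, Syp and Ugt1a7c to Il10rb. Near neighbours were common for some members and rare for others. Within a distance of 0.25 there was 1 gene for Il6, 26 for Il10, 209 for Il6st and 1862 for Il10rb.

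Among the other ligands and receptors of the IL-6 family, 5 of 14 genes passed the filter on low values and the other 9, Osmr among them, stayed under 1 FPKM in every library. Of the 5, 3 ligand genes were called lower in Pim1-/- cells after LPS, where 5.15% of all tested genes were. By the FDR alone 4 were lower and 1 higher, where 43.4% and 37.6% of all tested genes were. Il27, which encodes the p28 subunit of IL-27, stood at 1064 (WT) and 480 FPKM (Pim1-/-) (difference -1.15, adjusted p = 9.22e-09). Ebi3, which encodes its partner subunit, stood at 546 and 220 FPKM (difference -1.31, adjusted p = 2.85e-11). Clcf1, which encodes a cytokine acting through the CNTF receptor, stood at 14.4 and 5.68 FPKM (difference -1.21, adjusted p = 3.79e-10). Lifr, the receptor chain of LIF, and Ebi3 (-1.08, adjusted p = 3.24e-10) were called lower without treatment, where 3.37% of all tested genes were. Lifr stood at 3.33 (WT) and 0.559 FPKM (Pim1-/-) (difference -1.47, adjusted p = 2.53e-11). It passed the filter on low values only through WT libraries. So it had to be lower in Pim1-/- cells, and its place in these counts is no finding. Of 11 other genes of the IL-10 family, 2 passed the filter. Of these, 1 was called lower after LPS, where 5.15% of all tested genes were. It was Il19, an IL-10 related cytokine gene, at 14.1 (WT) and 1.80 FPKM (Pim1-/-) (difference -2.44, adjusted p = 1.14e-12).

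All 14 genes of the JAK-STAT signal transducers and their inhibitors were tested. After LPS all 14 passed the test as lower in Pim1-/- cells, and 5 were called, where 43.4% and 5.15% of all tested genes were. Stat3, the transcription factor downstream of both receptor systems, stood at 28.1 (WT) and 15.1 FPKM (Pim1-/-) untreated, and at 129 and 40.7 FPKM after LPS (difference -1.64, adjusted p = 2.4e-12). Socs1 and Socs3, which encode feedback inhibitors of JAK kinases, differed by -1.49 and -1.30 after LPS, and Socs3 stood at 1119 and 454 FPKM. The kinase gene Jak1 differed by -1.30 and the adaptor gene Grb2 by -1.07. The list median was -0.80 after LPS, where that of all tested genes was -0.03 and that of the 10 macrophage markers -0.94. Without treatment 10 of the 14 passed the test as lower, where 44.2% of all tested genes did. The adaptor gene Gab1 was called, 1 of 14, where 3.37% of all tested genes were called lower (difference -1.50, adjusted p = 4.65e-12). Gab1 was over 1 FPKM only in untreated WT libraries and passed the filter through them. So it had to be lower here, and its call is no finding.

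Of 12 genes listed as STAT3 targets in macrophages, 11 were tested, and after LPS 8 were called lower in Pim1-/- cells and 0 higher, where 5.15% and 3.51% of all tested genes were. Il4ra, a chain of the IL-4 receptor, stood at 113 (WT) and 12.8 FPKM (Pim1-/-) (difference -3.05, adjusted p = 9.36e-16). Il1rn, which encodes the antagonist of the IL-1 receptor, stood at 710 and 180 FPKM (difference -1.98, adjusted p = 2.7e-14). The transcriptional regulators Nfil3, Sbno2 and Bcl3 differed by -1.90, -1.82 and -1.45. The list median was -1.30. Without treatment 3 of the 11 were called lower, where 3.37% of all tested genes were, and the median was -0.62. Il1rn stood then at 2.24 (WT) and 2.34 FPKM (Pim1-/-), and its response to LPS differed by -2.02. Socs3 and Zfp36 of this list stand in other lists too, as does Nfil3, and the lists were chosen with earlier results of these data known.

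After LPS the remaining lists held 2, 2 and 1 called genes, where 5.15% of all tested genes were called lower. Of 14 regulators of Il6 and Il10 transcription, 2 were called lower after LPS, Nfil3 and Maf. Maf, which encodes the Il10 activator c-Maf, stood at 105 (WT) and 40.0 FPKM (Pim1-/-) untreated (difference -1.37, adjusted p = 8.58e-13), and at 136 and 34.6 FPKM after LPS (difference -1.94, adjusted p = 2.5e-14). Prdm1 and Nfkbiz, which encode the repressor Blimp-1 and the NF-κB cofactor IκBζ, were called lower without treatment (-1.61 and -1.22), and Ets2 was called higher (1.02). With Maf, 3 of the 14 were then called lower and 1 higher, where 3.37% and 4.4% of all tested genes were. Of 9 regulators of cytokine mRNA stability, 2 were called lower after LPS. These were Arid5a, which encodes a protein that stabilizes Il6 mRNA (-1.11), and Zfp36, which encodes the decay factor tristetraprolin (-1.01). Without treatment Zfp36l1 (-1.90), Zfp36 (-1.23) and Zc3h12a, which encodes the RNase regnase-1 (-1.04), were called lower. That was 3 of 9, where 3.37% of all tested genes were called lower. Of 5 genes of receptor shedding and surface control, Rhbdf2, a partner of the sheddase ADAM17, was called lower after LPS (-1.03), and 0 were called without treatment, when 4 passed the test as lower, where 44.2% of all tested genes did, and 1 as higher.

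**Figure D5:**
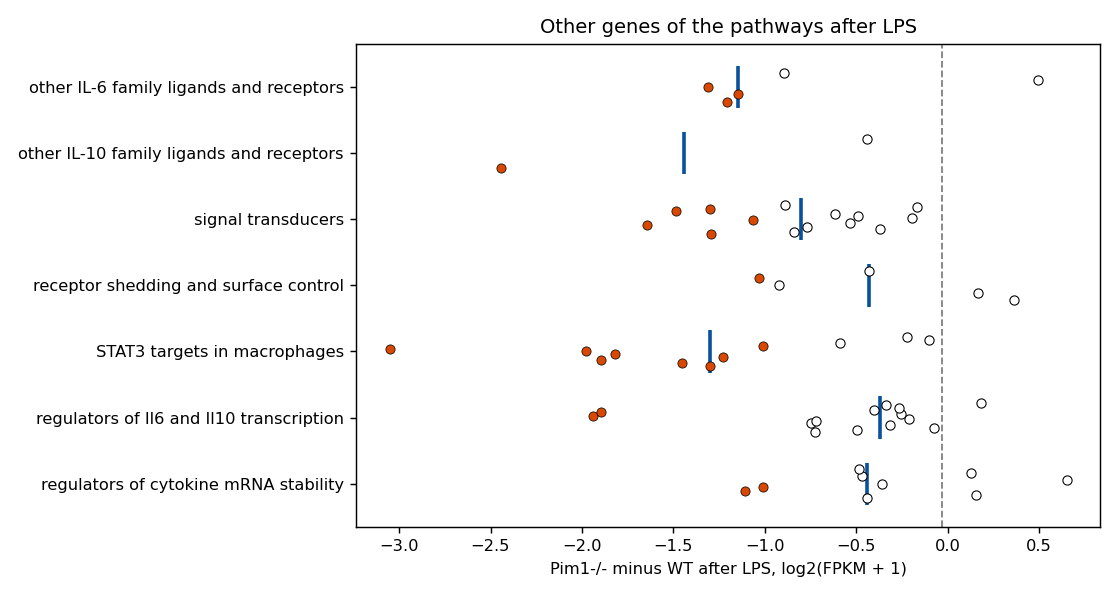
Difference between Pim1-/- and WT after LPS on log2(FPKM + 1) (x axis) for the tested genes of 7 lists (y axis, vertical spread only for legibility). Filled points are called genes, open points other tested genes, blue bars list medians and the dashed line the median of all tested genes (-0.03). The median of the STAT3 targets lies at -1.30.

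Scaling every library to Actb moved the median difference of all tested genes after LPS by 1.085, and so turned many of these directions. Under it the list medians after LPS were 0.49 for the signal transducers and 0.05 for the STAT3 targets, both still below the median of all genes, 1.052. Under quantile normalization, median-ratio scaling and scaling to equal sums of FPKM, both medians stayed below 0, the nearest to it at -0.58 for the signal transducers and at -1.07 for the STAT3 targets, both under quantile normalization. Under quantile normalization and equal sums, Il10 after LPS was 0.82 and 0.91 lower in Pim1-/- cells and Il10ra 0.84 and 0.97 lower, short of 2-fold. Under Actb scaling Il10 and Il10ra were 0.28 and 0.25 higher.

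Copies of the short sequence ATTTA in a 3′ UTR are known as marks of unstable cytokine mRNA, which proteins such as tristetraprolin bind. The heptamer TATTTAT occurred 5 times in the 3′ UTR of Lif, 4 times in Il10, 3 times in Osm, 3 times in Il10ra and once in Il6. It was not found in Il6ra, Il6st or Il10rb, although the 3′ UTR of Il6st, of 5641 nt, is longer than that of Lif, of 3180 nt, and of Il6, of 427 nt. Of 18455 genes with a 3′ UTR of at least 50 nt, 26.8% held at least one heptamer and 0.732% at least as many as Lif, with no allowance for length. So every ligand among the members held it, and of the receptor chains Il10ra did. The shorter ATTTA occurred in every member, 9 times in Il6st, 7 in Lif and 6 each in Il6, Osm and Il10. It occurred 4 times in Il10rb, 3 in Il10ra and 1 in Il6ra, so it did not set the ligands apart. The windows of 30 bases with most heptamers are shown for the 5 genes that held the heptamer. They are given as DNA on the strand of the gene (GRCm38, GENCODE M21), with each ATTTA in capitals. They lie at chr5:30019716-30019745 for Il6, chr11:4270474-4270503 for Lif, chr11:4240940-4240969 for Osm and chr1:131024373-131024402 for Il10, all on the plus strand, and at chr9:45254114-45254143 on the minus strand for Il10ra.
Il6: actttaagttaATTTAtgattgatATTTAt
Lif: gctgtctATTTAttactatgtcctATTTAt
Osm: atccgttttatATTTAtaaggcctATTTAt
Il10: ctcgtttgtacctctctccgaaatATTTAt
Il10ra: ctttATTTATTTAtttgctcacttATTTAt
The part of these sequences in the differences between groups was not tested.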

How the data were processed

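RNA-seq libraries of 4 groups with 3 replicates each were used. Per the labels, the authors demultiplexed and trimmed the reads of stranded mRNA libraries (bcl2fastq 2.20.0.422, cutadapt 1.18), mapped them with TopHat2 2.0.13 and quantified genes with Cuffdiff 2.2.1. The submitters' processing notes name mm10, whereas the methods name a rat build. For the annotation and the scaling between libraries no source used here gives a name. The deposited values were read as FPKM from the tool and the values, since the files name no unit, and were used as deposited.

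Values were fitted as 4 group means of log2(FPKM + 1) with limma 3.58.1 (R 4.3.3, trend). The thresholds (2-fold, p 0.05, FDR 0.1) are those the study's methods give. Run on simulated data of 10581 genes, the fit recovered 200 of 200 changed genes in the comparison after LPS with 0 false calls. This was a check of the code, and how often the calls are right in the real libraries was not tested. Depth was estimated from steps of low values in genes with 1 transcript, assuming 200 nt fragments. Between 68.7% and 80.0% of low values per library lay within 0.05 of a whole number of fragments, so no count test was run.

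Same-numbered libraries deviated together, with correlations over 3646 genes of 0.33, 0.37 and 0.46 between genotypes untreated and 0.43, 0.54 and 0.68 between treatments in Pim1-/- cells. By a threshold of 0.1 for the lowest correlation, the numbers could pair the libraries in these 2 comparisons and not in the others (lowest 0.02 and -0.10). No label gives a pairing, and genes of a library do not vary independently, so a pairing is not established. Alternatives covered the pseudocount (0.1), filters (none, 5 FPKM), scaling (median ratio, quantile, Actb, equal sums of FPKM), the fit, a replicate block, the fold threshold and leaving out each library.

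The members and lists were chosen with earlier results of these data known. From a list, up to 5 called genes with the largest change per comparison, and genes under 1 FPKM in every library, were named. Adgre1 is Emr1 in the files. Sequences came from RefSeq promoters and GENCODE M21. Other software was Python 3.11.15, pandas 2.3.3, numpy 2.4.6, scipy 1.17.1 and matplotlib 3.10.9.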

Additional observations from a re-analysis of the deposited data

Results flagged for a closer look

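The response to LPS differed between the genotypes for 5 of the 7 tested members by the test of the difference itself (limma, FDR under 0.1). The count is near the background, 4 in the positive and 1 in the negative direction, where 32.7% and 35.8% of all tested genes passed. It was larger in Pim1-/- than in WT cells for Osm, by 1.27 on log2(FPKM + 1) (adjusted p = 1.9e-09), and for Il10ra, by 0.43 (adjusted p = 0.000183). Il6ra and Il6st fell less in Pim1-/- cells, with differences of 0.86 (adjusted p = 8.56e-06) and 0.85 (adjusted p = 4.2e-07). The size for Il6ra depends on the pseudocount of 1, which is near its levels after LPS. There its difference between genotypes was -0.53, and -0.88 with a pseudocount of 0.1. For Il10 the difference was -0.81 (adjusted p = 9.34e-06), which rests on the pseudocount of 1 at untreated levels of 0.122 to 0.669 FPKM. With a pseudocount of 0.1 it was -0.17 (adjusted p = 0.602), and on the linear scale the mean rose 104-fold in WT and 121-fold in Pim1-/- cells. For Osm every Pim1-/- library was below every WT library without treatment and above every WT library after LPS. Il10ra, Il6ra and Il6st were already lower in untreated Pim1-/- cells. The cause of these differences was not tested.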

How the results depend on the processing

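The count of called members changed by over 1.5 times in 6 settings. With no fold threshold it was 6 after LPS, 6 without treatment and 5 for the difference in response. In the comparison after LPS it was 0 under quantile normalization and 1 with equal sums of FPKM, a scaling added after the data were seen. That 1 was Osm, higher in Pim1-/- cells, and Il10 and Il10ra were not called. Scaled to Actb the count was 6 for the difference in response. After LPS it was 3 under Actb scaling, near the 2 of the main fit, but for other genes. These were Osm, Il6 and Il10rb, each higher in Pim1-/- cells. Scaling to Actb turned 8 directions besides that of Il6 in untreated cells. Pim1-/- minus WT after LPS became 0.23 for Il6ra, 0.92 for Il6st, 0.28 for Il10, 0.25 for Il10ra and 1.02 for Il10rb, LPS in WT became -1.23 for Osm and -1.35 for Il10ra, and the difference in response became 0.72 for Il10. Il6 in untreated cells, with about 1 fragment per genotype, was -0.0005 and became 0.0212 under quantile normalization, 0.0063 under Actb scaling and ranged from -0.0121 to 0.0116 when 1 library was left out. Actb scaling moved the median of all genes by -2.16 and -1.39 for LPS in WT and Pim1-/- cells and equal sums by -0.67 and -0.57. The split of called genes after LPS, 545 lower and 371 higher, became 34 and 5736 with Actb and 335 and 504 with equal sums. Osm after LPS passed 2-fold with a pseudocount of 0.1 (1.02), equal sums (1.11) and Actb (2.16). The difference between genotypes no longer passed the FDR for untreated Osm (-0.07, adjusted p = 0.362) and Il10rb (-0.08, adjusted p = 0.246) under Actb scaling. Il10ra in WT was short of 2-fold with LPS under quantile normalization (0.25) and equal sums (0.42). The replicate block changed no count of called members, for example 2 called after LPS with it and 2 without, but Il6 after LPS then passed the FDR (adjusted p = 0.0943), and leaving out any 1 library moved no count by over 1.5 times. Depth limits Lif in all libraries and Il6 and Il10 in untreated ones, which hold at most an estimated 36.1 fragments.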
